A study of Mus musculus with 6 samples.

Results

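The chromatin regulators described here are 10 genes whose human counterparts are mutated in syndromes with a characteristic face: Chd7, Kmt2d, Kdm6a, Nipbl, Arid1b, Kat6a, Kat6b, Setd5, Ehmt1 and Crebbp. They were chosen by symbol in the mm10 annotation by a rule that uses no measured value, though with earlier results of these data known, and all 10 were present among the 53801 genes counted and among the 17514 that passed the filter on low counts. RNA came from the maxillary prominence, the facial outgrowth that forms the upper jaw, of mouse embryos (strain label C57BL/6, with a C57BL/6J background in the growth protocol) at embryonic day 12.5. The 3 WT samples were labelled wild type. The 3 Wnt1cre; Rosa26Dlx2/- samples (Dlx2OE) carried a Cre recombinase under Wnt1 control, active in the neural crest lineage, and a CAG-LSL-Dlx2-3xFlag cassette at the Rosa26 locus, which expresses the homeobox factor Dlx2 after Cre removes a stop. The extra Dlx2 is thus driven by the CAG promoter in cells with a history of Wnt1-Cre activity, not by the Dlx2 promoter. The labels give 7 littermates and the study's methods 6 as the source of the RNA, and how embryos were divided over the samples is not given, so the p-values measure the spread between these samples only. Each library held 26155500 to 31308813 counts on genes, and the count of 3 taken as a floor corresponded to 0.0955 to 0.111 CPM, the count of a gene scaled to the size of its library.

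Chromatin regulators set how accessible DNA is and which histone marks enhancers and promoters carry, and many of them act as large multi-subunit complexes. Neural crest cells, which build most of the facial skeleton and connective tissue, are known to be sensitive to the dose of these proteins, since loss of a single copy is enough to alter the face in several of the human syndromes. The 10 genes cover different activities. Kmt2d (Kabuki syndrome) methylates histone H3 lysine 4 at enhancers, and Kdm6a (also Kabuki syndrome) removes methyl groups from lysine 27 within the same complex. Kat6a, Kat6b and Crebbp acetylate histones, Ehmt1 methylates lysine 9, Chd7 and Arid1b belong to ATP-dependent remodelers, Nipbl loads cohesin onto DNA, and Setd5 is a SET domain protein found with the NCoR corepressor.

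The DNA just before a RefSeq start site is shown for 3 of the genes that rose by the test below, since these had promoter windows to compare. RefSeq windows (GRCm38.p6) matched 7 of the 10 symbols, namely all but Chd7, Nipbl and Kat6a. The 250 bases before the start are printed on the strand of the gene, and capitals mark the CG dinucleotides. The Kmt2d window lies at chr15:98871206-98871455 (minus strand), the Kat6b window at chr14:21499520-21499769 (plus strand) and the Crebbp window at chr16:4213405-4213654 (minus strand).
Kmt2d: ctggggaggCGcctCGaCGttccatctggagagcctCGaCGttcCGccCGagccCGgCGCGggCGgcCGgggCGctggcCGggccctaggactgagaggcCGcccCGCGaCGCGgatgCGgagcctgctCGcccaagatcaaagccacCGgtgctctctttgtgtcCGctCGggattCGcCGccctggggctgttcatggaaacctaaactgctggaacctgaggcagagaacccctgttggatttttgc
Kat6b: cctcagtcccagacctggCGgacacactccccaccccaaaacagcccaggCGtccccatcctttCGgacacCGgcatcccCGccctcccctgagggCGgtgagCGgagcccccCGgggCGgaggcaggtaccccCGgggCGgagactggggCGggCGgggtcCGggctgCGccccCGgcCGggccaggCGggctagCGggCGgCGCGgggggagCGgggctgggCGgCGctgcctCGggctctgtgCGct
Crebbp: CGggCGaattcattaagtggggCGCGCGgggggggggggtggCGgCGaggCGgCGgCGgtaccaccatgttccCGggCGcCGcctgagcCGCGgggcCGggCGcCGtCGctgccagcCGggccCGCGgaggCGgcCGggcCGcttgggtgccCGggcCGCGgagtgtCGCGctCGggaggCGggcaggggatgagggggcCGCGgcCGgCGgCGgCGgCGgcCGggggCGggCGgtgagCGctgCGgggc
The Kmt2d window held 26 CG dinucleotides, a number that 9.59% of the 32851 windows in the table reached. Kat6b held 27, which 8.56% of windows reached, and Crebbp held 44, which 0.539% reached, against a median of 6 over all windows. Windows of Arid1b, Ehmt1 and Kdm6a held 37, 26 and 15, whereas the Setd5 window held 0. The Kat6b and Setd5 windows lie before internal starts, 18336 and 27570 bp inside the outermost annotated start of the gene in GENCODE. For Crebbp and Arid1b the starts lie 593 and 742 bp inside it, so these windows also fall within the annotated gene. The letters TAATTA, a palindrome that reads the same on both strands and is a core sequence bound by homeobox factors of the Dlx family, were found in 0 of the 8 member windows and in 4.84% of all windows. A match or its absence in 250 bases describes these letters only.

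All 10 regulators had a higher mean in Dlx2OE than in WT, although the log2 fold changes of Chd7 and Setd5 were below 0 after a correction for exon length and GC content, and that of Kdm6a was -0.0019 when libraries were scaled on long genes. By the test, 4 of them rose: Kmt2d, Crebbp, Kat6b and Kat6a. A rise is called here at an adjusted p under 0.05 in the quasi-likelihood F test of edgeR, adjusted by the method of Benjamini and Hochberg over all 17514 genes tested, of which 6.45% were called, 2.99% higher and 3.46% lower. None of the members fell, and none passed the study's additional limit of a log2 fold change above 1, which 1.50% of all genes did. At an unadjusted p under 0.05 the number was 7 of 10, beside 29.5% of all genes and 37.9% of the genes at least as long as the shortest member. In 7 members the 3 Dlx2OE samples all lay above the 3 WT samples, which was also so for 16.7% of all genes tested, and in none did they all lie below, as in 17.3% of all genes. The median log2 fold change of the members was 0.38, beside 0.0028 over all genes, and 50.3% of all genes had a positive value. Fewer cells of a type and less RNA per cell cannot be told apart in these bulk samples.

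**Figure D1:**
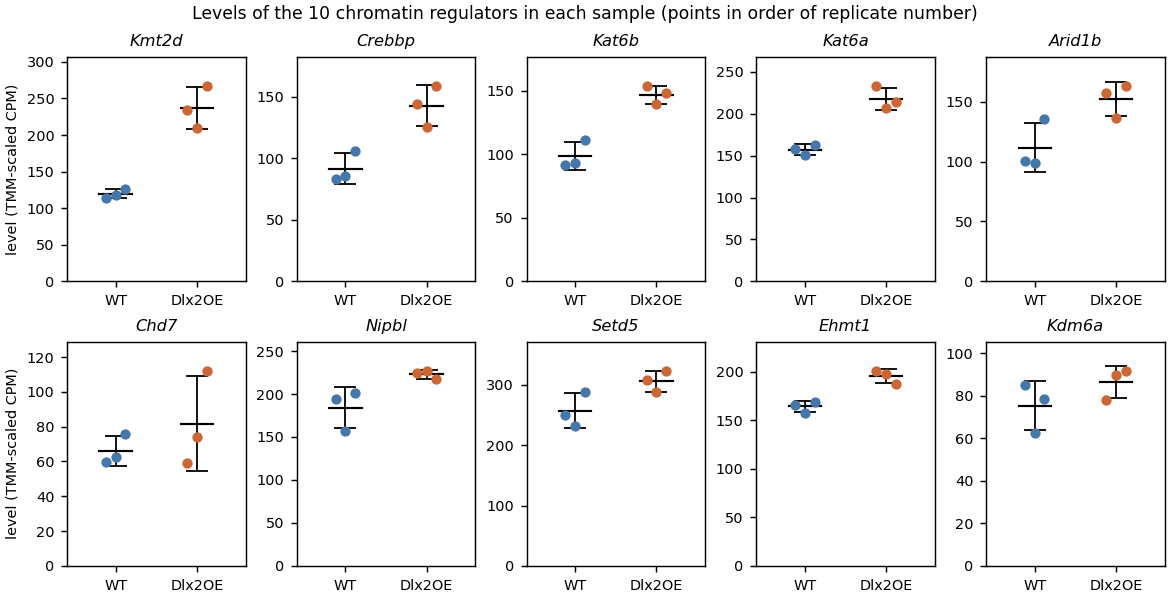
Level of each of the 10 genes in TMM-scaled CPM (vertical axes, starting at 0) in the 3 WT and 3 Dlx2OE samples, drawn as points in order of replicate number, with the mean and SD of 3 as bars. Kmt2d has the widest gap, from 114 to 126 CPM in WT against 209 to 267 CPM in Dlx2OE, while the samples of Chd7, Kdm6a and Setd5 overlap.

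The members are long genes, and length moved with genotype across the transcriptome, so values are given below beside the median of genes of like length. Their exons added up to between 8116 bp (Ehmt1) and 19931 bp (Kmt2d), which placed 4 of them in the ninth and 6 in the tenth of 10 equal classes of exon length. The median log2 fold change rose steadily over these classes, from -0.30 in the shortest to 0.14 in the ninth and 0.23 in the longest. Among the 2635 genes at least as long as Ehmt1, 75.5% had a positive log2 fold change, 8.35% rose and 35.1% had all Dlx2OE samples above all WT samples, with a median of 0.21. So 10 of 10 positive values and 7 of 10 without overlap are to be read against 75.5% and 35.1%, not only against 50.3% and 16.7%.

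The length trend was not the same in every library of a genotype. In the longest class the median log2 deviation from the 6-sample mean was -0.14 in WT 1, -0.21 in WT 2 and -0.023 in WT 3, and 0.080, 0.10 and 0.17 in Dlx2OE 1, 2 and 3. WT 3 thus lay between the other WT samples and the Dlx2OE samples. The slope of the deviations on log2 exon length was higher in all 3 Dlx2OE samples than in WT, where the exact two-sided permutation test gave p = 0.1, the smallest p that 3 against 3 allows. The share of read pairs outside annotated exons was 5.74%, 6.25% and 5.94% in WT and 6.46%, 8.78% and 16.4% in Dlx2OE, and ribosomal protein genes took 8.72%, 9.52% and 6.09% of counts in WT and 5.67%, 5.31% and 4.46% in Dlx2OE. These measures also separated the genotypes without overlap, and their part in the length trend was not tested.

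**Figure D2:**
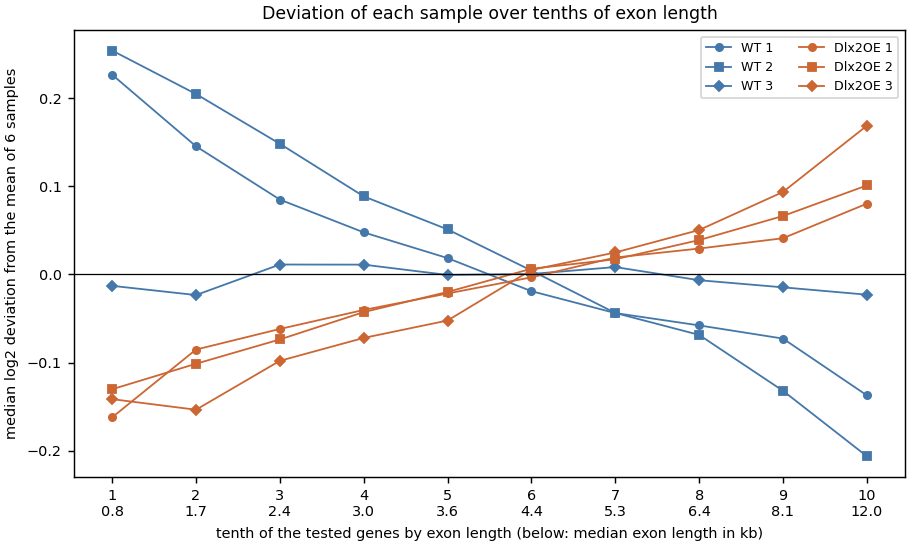
Median log2 deviation of each sample from the mean of the 6 samples (vertical axis) over the 10 classes of exon length (horizontal axis, with the median length in kb below). WT 1 and WT 2 fall with length to -0.14 and -0.21, the Dlx2OE samples climb to between 0.080 and 0.17, and WT 3 stays near 0 with -0.023 in the longest class.

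Kmt2d (ENSMUSG00000048154, GRCm38 chromosome 15, 98831669 to 98871204, minus strand), the H3K4 methyltransferase of the MLL3/4 complex, had 113.8, 118.6 and 126.2 CPM in WT and 234.1, 209.2 and 266.6 CPM in Dlx2OE. Every Dlx2OE sample stood well above every WT sample. The mean went from 119.6 ± 6.25 to 236.6 ± 28.8 CPM (SD, n = 3), a fold of 1.98. On the log2 scale this was 0.98 with a standard error (SE) of 0.117 (adjusted p = 0.00929). This log2 fold change lay 0.76 above the median of its length class and above 94.9% of the genes in it. After correction of every library for exon length and GC content, the log2 fold change was 0.49 (95% interval 0.19 to 0.79, adjusted p = 0.0737), so the call was lost. On that corrected log2 CPM scale the samples still did not overlap, with 7.35, 7.12 and 6.97 in WT and 7.76, 7.67 and 7.49 in Dlx2OE. Without WT 2 the uncorrected adjusted p was 0.0548.

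Crebbp (ENSMUSG00000022521, chromosome 16, 4081328 to 4213997, minus strand), the histone acetyltransferase CBP affected in Rubinstein-Taybi syndrome, had 83.2, 85.3 and 105.8 CPM in WT and 144.2, 125.6 and 158.3 CPM in Dlx2OE. The groups did not overlap, and WT 3 was the WT sample nearest to Dlx2OE. Its log2 fold change reached 0.64 (SE 0.133, adjusted p = 0.0348), or 0.41 above its length class, and 0.34 (95% interval 0.11 to 0.57, adjusted p = 0.0915) after the length and GC correction. The uncorrected call was lost in 4 of the 6 fits that each left out 1 library, with an adjusted p of up to 0.149.

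Kat6b (ENSMUSG00000021767, chromosome 14, 21481434 to 21672478, plus strand) and Kat6a (ENSMUSG00000031540, chromosome 8, 22859535 to 22943259, plus strand) encode the paralogous catalytic subunits MORF and MOZ of an H3 acetyltransferase complex. Kat6b had 91.8, 93.1 and 111.5 CPM in WT and 153.6, 139.5 and 148.2 CPM in Dlx2OE. Kat6a had 157.6, 150.7 and 163.3 CPM in WT and 232.8, 207.5 and 213.9 CPM in Dlx2OE. In both genes the lowest Dlx2OE sample was higher than the highest WT sample. Kat6b rose by a log2 fold of 0.57 (SE 0.109, adjusted p = 0.0280) and Kat6a by 0.47 (SE 0.0964, adjusted p = 0.0336). With the correction these became 0.26 (adjusted p = 0.185) and 0.31 (adjusted p = 0.132), and neither gene was called. Leaving out 1 library at a time, Kat6b kept its uncorrected call in 2 of 6 fits and Kat6a in 1 of 6.

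Arid1b (ENSMUSG00000069729, chromosome 17, 4994332 to 5347656, plus strand), the BAF remodeler subunit affected in Coffin-Siris syndrome, came next. Its levels were 100.8, 98.8 and 135.6 CPM in WT and 157.5, 136.1 and 162.8 CPM in Dlx2OE, so the groups were separated only by the narrow gap between WT 3 and Dlx2OE 2. The log2 fold change of 0.45 (SE 0.146) did not pass the test in edgeR (adjusted p = 0.0961). DESeq2, the tool named by the study, called it, whereas the length and GC correction lowered the log2 fold change to 0.15 (adjusted p = 0.447).

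Nipbl (ENSMUSG00000022141, chromosome 15, 8290617 to 8444463, minus strand), the cohesin loader of Cornelia de Lange syndrome, had 194.5, 156.6 and 201.5 CPM in WT and 224.9, 226.9 and 217.0 CPM in Dlx2OE. Ehmt1 (ENSMUSG00000036893, chromosome 2, 24789928 to 24919614, minus strand), the H3K9 methyltransferase GLP of Kleefstra syndrome, had 166.2, 157.9 and 169.3 CPM in WT and 201.1, 198.1 and 187.9 CPM in Dlx2OE. Neither overlapped between genotypes, but the differences were small. Their log2 fold changes of 0.28 (95% interval 0.0013 to 0.55, adjusted p = 0.167) and 0.25 (95% interval 0.042 to 0.46, adjusted p = 0.119) did not pass the test and lay 0.13 and 0.11 above their length class.

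Chd7 (ENSMUSG00000041235, chromosome 4, 8690406 to 8867659, plus strand), the remodeler of CHARGE syndrome, was the most variable member. It had 59.9, 62.7 and 75.7 CPM in WT and 59.1, 74.2 and 112.0 CPM in Dlx2OE, with the lowest value of all samples in Dlx2OE 1 and the highest in Dlx2OE 3. Its log2 fold change was 0.31 (95% interval -0.20 to 0.82, adjusted p = 0.380), and it was -0.019 after the length and GC correction. The summed level of 8 neuronal markers was 201.8, 491.6 and 980.6 CPM in the same 3 Dlx2OE samples and 88.7, 337.1 and 204.4 CPM in WT, and that of 4 of 5 Schwann and glial markers tested was 27.7, 126.5 and 234.0 CPM in Dlx2OE and 79.4, 67.7 and 66.7 CPM in WT. In Dlx2OE both sums were lowest in sample 1 and highest in sample 3, as Chd7 was, but in WT neither sum had its highest value in WT 3, where Chd7 was highest. The part of nervous tissue in the Chd7 values was not tested.

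**Figure D3:**
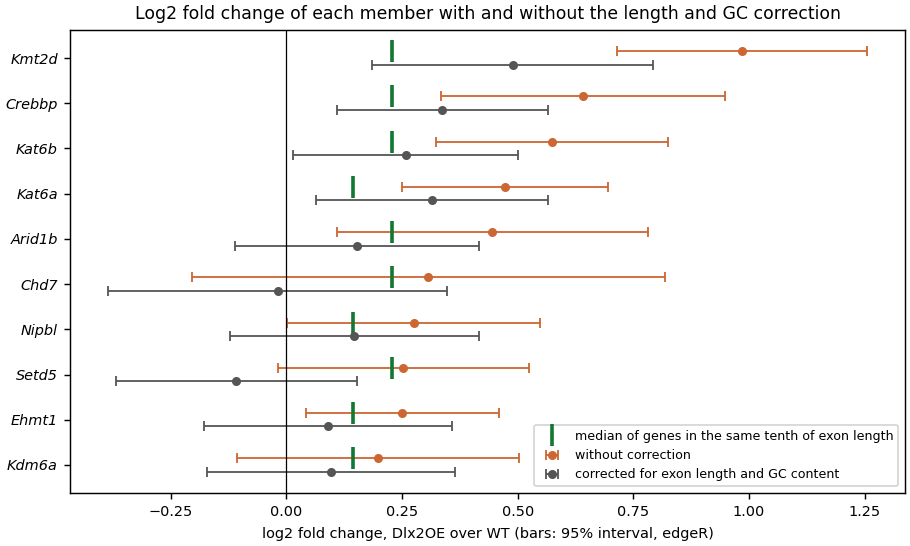
Log2 fold change of Dlx2OE over WT for each gene (horizontal axis) with its 95% interval from edgeR, without correction (orange) and after correction for exon length and GC content (grey); the green mark is the median of all genes in the same class of exon length. Kmt2d moves from 0.98 to 0.49 and Setd5 from 0.25 to -0.11, and the orange points of Chd7, Kdm6a and Setd5 lie less than 0.1 above their green marks.

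Setd5 (ENSMUSG00000034269, chromosome 6, 113077365 to 113153435, plus strand) is also the neighbor of the transgene. Its start lies 31 bp from that of Gt(ROSA)26Sor, the noncoding gene on the other strand into which the Dlx2 cassette was inserted. Setd5 had 250.4, 231.7 and 288.5 CPM in WT and 307.4, 287.9 and 323.0 CPM in Dlx2OE, so WT 3 and Dlx2OE 2 overlapped. The log2 fold change was 0.25 (95% interval -0.018 to 0.52, adjusted p = 0.192), 0.024 above the median of its length class, and -0.11 after the correction. With the longest transcript (6755 bp) in place of the exon length (18347 bp), the corrected value was 0.034. Gt(ROSA)26Sor itself had 18.5, 17.3 and 15.8 CPM in WT and 34.1, 41.7 and 36.8 CPM in Dlx2OE and rose by a log2 of 1.13 (adjusted p = 0.00758). It was the only gene that rose among the 22 tested within 500 kb of its position, itself included, and 1 fell. These shares of 4.55% each stand beside 2.99% and 3.46% of all genes. At an unadjusted p under 0.05 the share was 31.8%, beside 29.5% of all genes. The gene that fell was Camk1, a calcium and calmodulin dependent kinase (log2 fold change -0.69, adjusted p = 0.0137). The next by p, Emc3 of the ER membrane protein complex, had -0.38 (adjusted p = 0.0556). Exons of other annotated genes overlap 8.55% of the exon bases of Gt(ROSA)26Sor, so its counts are uncertain to that extent.

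Kdm6a (ENSMUSG00000037369, chromosome X, 18162575 to 18279936, plus strand), the H3K27 demethylase, had the smallest log2 fold change of the 10. It had 85.0, 62.7 and 78.3 CPM in WT and 77.8, 89.6 and 91.7 CPM in Dlx2OE, with overlap between the genotypes (log2 fold change 0.20, 95% interval -0.11 to 0.50, adjusted p = 0.345). Kdm6a is known to escape X inactivation, and the sex of the embryos in each sample is not given. Xist, which is transcribed from the inactive X, had 1410, 10.2 and 1070 CPM in WT and 1184, 2169 and 2356 CPM in Dlx2OE, and the sum of the Y-linked genes Uty, Ddx3y, Kdm5d and Eif2s3y was 92.1, 243.9 and 162.7 CPM in WT and 156.1, 104.2 and 48.5 CPM in Dlx2OE. WT 2, with Xist near 0 and the highest Y-linked sum, had the lowest Kdm6a, and the part of sex in the Kdm6a values was not tested apart from genotype. Uty, the Y-linked paralog of Kdm6a, had a log2 fold change of -0.82 (adjusted p = 0.273). The other X-linked escape genes had values of 0.46 for Kdm5c (adjusted p = 0.0788), 0.34 for Eif2s3x (adjusted p = 0.252) and 0.15 for Ddx3x (adjusted p = 0.542). With the Y-linked level as a covariate, the log2 fold change of Kdm6a was 0.059 (adjusted p = 0.821). The Y-linked genes had a median log2 fold change of -0.69, so the covariate moves partly with genotype. This fit therefore cannot separate sex from genotype.

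Levels are compared between genes per kb of exon. In WT, Ehmt1 was the highest with 20.3 ± 0.728 CPM per kb (SD, n = 3), followed by Nipbl with 19.6 ± 2.56, Kat6a with 17.1 ± 0.689 and Setd5 with 14.0 ± 1.58. Kdm6a had 8.99 ± 1.37, Arid1b 8.87 ± 1.65, Crebbp 6.75 ± 0.923, Kmt2d 6.00 ± 0.314, Kat6b 5.87 ± 0.656 and Chd7 4.79 ± 0.612 CPM per kb. Neighbors in this order were separated without overlap of the 3 WT samples only between Kat6a and Setd5, between Setd5 and Kdm6a, and between Arid1b and Crebbp. In Dlx2OE, Kmt2d had 11.9 ± 1.44 CPM per kb and moved from place 8 to place 6, and Kdm6a moved from place 5 to place 8. The Dlx2OE samples of Arid1b (10.8 to 12.9), Kmt2d (10.5 to 13.4), Crebbp (9.27 to 11.7) and Kdm6a (9.28 to 10.9) overlapped. The order of these genes in Dlx2OE is therefore not certain. The order depends on the annotated length: per kb of the longest transcript, Setd5 was first in WT with 38.0 and Kmt2d last with 6.03.

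A ratio to a paralog or complex partner, taken within each sample, does not depend on how libraries are scaled. It can still move with length or GC content where the pair differs in them. For 9 such pairs the exact two-sided permutation test could not go below p = 0.1. The log2 ratio of Kmt2d to Kmt2c, the other large methyltransferase of the MLL3/4 complexes, was 0.33, 0.53 and 0.36 in WT and 1.08, 0.84 and 0.99 in Dlx2OE. All Dlx2OE ratios exceeded all WT ratios, with a mean difference of 0.56 (exact p = 0.1, 0.3 after Benjamini-Hochberg adjustment over the 9 pairs). The exons of these genes add up to almost the same length, 19931 and 20291 bp, but differ in GC content with 58.4% and 47.6%, and after the length and GC correction the difference was 0.45. Kmt2c itself had a log2 fold change of 0.42 (adjusted p = 0.0629).

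The log2 ratio of Crebbp to Ep300, its paralog p300, was -0.57, -0.36 and -0.47 in WT and -0.24, -0.32 and -0.16 in Dlx2OE. It was higher in Dlx2OE without overlap, by 0.23 (exact p = 0.1, adjusted 0.3). These exons have similar length, 13540 and 14273 bp, and similar GC content, 51.7% and 51.1%, and the corrected difference was 0.24. The ratio of Kdm6a to Kmt2d was lower in Dlx2OE without overlap, by a log2 of -0.77 (exact p = 0.1, adjusted 0.3), or -0.39 after correction, but their exon lengths and GC contents differ widely.

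The other 6 ratios overlapped between genotypes. Mean differences were 0.0080 for Arid1b to Arid1a (exact p = 0.8), 0.041 for Nipbl to its partner Mau2 (exact p = 0.9), 0.046 for Setd5 to Kmt2e (exact p = 0.5) and 0.055 for Ehmt1 to Ehmt2 (exact p = 0.7). Kat6a to Kat6b differed by -0.11 (exact p = 0.3) and Chd7 to Chd8 by -0.21 (exact p = 0.6). The ratio of Arid1b to Arid1a stayed between -1.42 and -1.26 in all 6 samples.

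**Figure D4:**
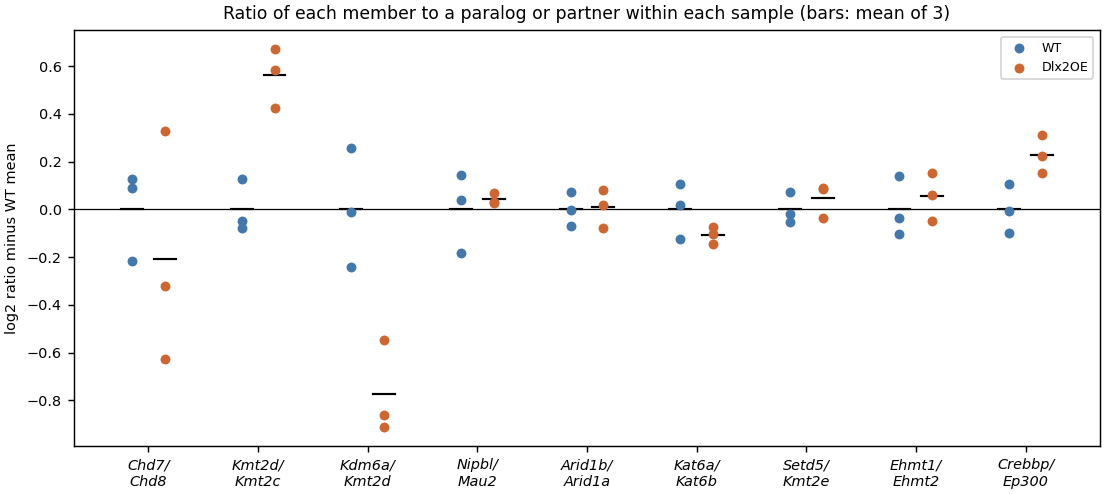
Log2 ratio of each member to its paralog or partner in each sample, minus the WT mean of that ratio (vertical axis), for 3 WT (blue) and 3 Dlx2OE (orange) samples with the mean of 3 as a bar. Only Kmt2d to Kmt2c, Kdm6a to Kmt2d and Crebbp to Ep300 separate the genotypes, with mean differences of 0.56, -0.77 and 0.23.

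Few other genes of the complexes passed the test. Of 81 genes in 9 lists without the members, 80 were tested, and 2 rose and none fell in edgeR (25 had an unadjusted p under 0.05). DESeq2 called 11 of the 80 higher and 2 lower, where it called 1188 higher and 1442 lower of 16139 genes tested. The 2.50% that rose in edgeR and the 31.3% with an unadjusted p under 0.05 are close to the 2.99% and 29.5% of all genes. Positive log2 fold changes made up 70%, beside 50.3% of all genes. All Dlx2OE samples lay above all WT samples in 38.8% and below in 7.5%, beside 16.7% and 17.3% of all genes. The risers were Chd8, a remodeler and paralog of Chd7 (log2 fold change 0.46, adjusted p = 0.0473), and Tbl1xr1, a subunit of the NCoR corepressor (0.53, adjusted p = 0.0427). Among these 80 genes, 34 were at least as long as Ehmt1, of which 31 had a positive log2 fold change with a median of 0.26. The 46 shorter genes had 25 positive values and a median of 0.022. After the length and GC correction none of the 80 passed in edgeR, with 6 at an unadjusted p under 0.05.

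By complex, 1 of 9 tested genes of the MLL3/4 complex rose (Kmt2d), as did 2 of 8 of the MOZ/MORF complex (Kat6a and Kat6b), 1 of 9 CHD remodelers (Chd8), 1 of the 2 CBP/p300 acetyltransferases (Crebbp) and 1 of 8 of the SETD5 and NCoR list (Tbl1xr1), where 2.99% of all genes and 8.35% of long genes rose. These counts include the members, and without them only Chd8 and Tbl1xr1 rose. The median log2 fold change was 0.20 in the MLL3/4 complex, 0.29 in MOZ/MORF, 0.34 in the CHD remodelers, 0.52 in CBP/p300 and 0.23 in the SETD5 and NCoR list, beside 0.0028 over all genes. Without the members these medians were 0.13, 0.24, 0.35, 0.41 (Ep300 alone) and 0.21. The median excess over genes in the same class of exon length was, in the same order, 0.072, 0.18, 0.12, 0.29 and 0.029. Without the members this excess was 0.072, 0.15, 0.16, 0.18 and 0.035. With libraries scaled on long genes the median of all genes was -0.20, and these medians shift down with it.

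No gene passed in cohesin and its regulators (14 tested, median 0.086, 3 at an unadjusted p under 0.05), in the BAF and PBAF complexes (24 tested, median 0.074, 7 at an unadjusted p under 0.05) or in the G9a/GLP complex (5 tested, median 0.19, 1 at an unadjusted p under 0.05). The lowest p in these lists belonged to Mau2 (log2 fold change 0.24, adjusted p = 0.108), Arid2 (0.30, adjusted p = 0.0875) and Ehmt1. Polycomb repressive complex 2, which writes the H3K27 methylation that Kdm6a removes, also had no gene that passed (11 tested, median 0.030, 2 at an unadjusted p under 0.05), and its lowest p was that of the histone chaperone Rbbp7 (-0.47, adjusted p = 0.0622). In the order given, the shares at an unadjusted p under 0.05 were 21.4%, 29.2%, 20% and 18.2%, beside 29.5% of all genes.

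**Figure D5:**
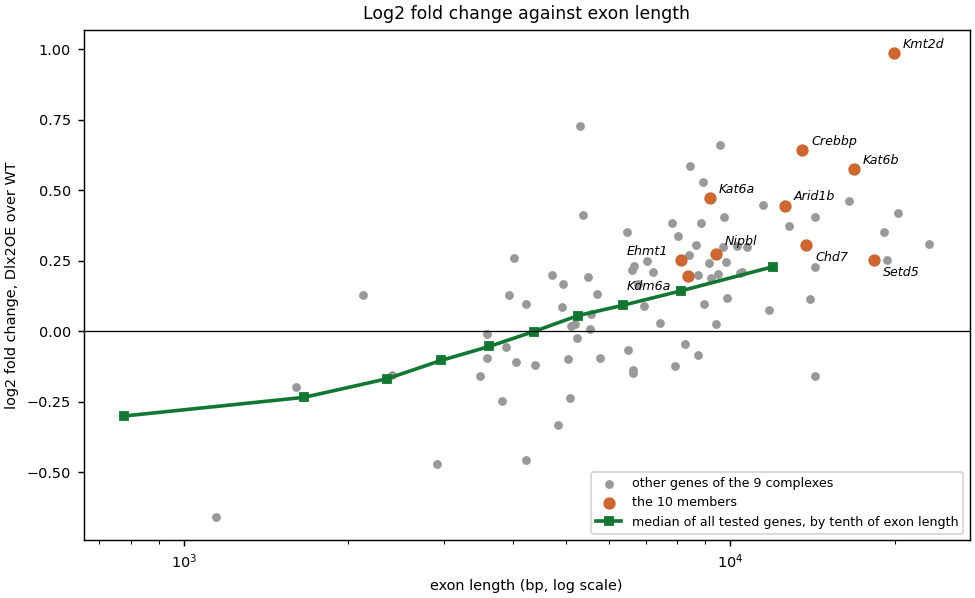
Log2 fold change of Dlx2OE over WT (vertical axis) against exon length in bp (horizontal axis, log scale) for the 10 members (orange) and the other tested genes of the 9 complexes (grey), with the median of all tested genes in 10 classes of exon length (green). The green line climbs from -0.30 to 0.23, each member lies above the median of its class, and Kmt2d is the farthest above.

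Dlx2 had 42.9, 35.0 and 45.2 CPM in WT and 118.8, 130.6 and 123.2 CPM in Dlx2OE (adjusted p = 0.00241), higher in the samples labelled as overexpressing it, the cassette included in the count. The 10 markers of facial mesenchyme were all counted and 2 of them rose, with summed levels of 3415 to 3574 CPM in WT and 3838 to 4035 CPM in Dlx2OE. Markers of other tissues were present. All of them passed the filter on low counts except in the Schwann and glial list, where 4 of 5 did. The sums were lower in Dlx2OE without overlap for 7 erythroid markers (3103 to 4230 against 1927 to 2496 CPM) and 6 macrophage markers (60.4 to 65.8 against 35.6 to 48.4 CPM), with 2 of each list called lower. They overlapped for 9 epithelial (692.3 to 1274 against 546.7 to 1767 CPM), 6 endothelial (261.6 to 396.4 against 185.8 to 290.8 CPM) and 6 muscle markers (113.1 to 218.0 against 44.4 to 127.5 CPM), with 2, 1 and 0 genes called lower. Malat1, a nuclear noncoding RNA, had 283.9, 258.0 and 188.3 CPM in WT and 249.4, 418.8 and 604.2 CPM in Dlx2OE (adjusted p = 0.130). The part of these differences in the values of the 10 regulators was not tested.

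The genes whose profile over the 6 samples came nearest to that of Kmt2d, by the root mean square difference of centred log2 CPM, were Mst1r (0.0713), Htr6 (0.0783) and Gm21989 (0.0937). They had 65 to 146, 23 to 50 and 35 to 80 counts per sample. Exons of other annotated genes overlap 100% of the exon bases of Gm21989, so its counts may not be its own. Among the members, Crebbp was nearest to Kmt2d (0.182) and Kdm6a the farthest (0.428). Nearest to the mean of the 10 members were Cers6 (0.0240), Mical1 (0.0271) and Cramp1l (0.0294), all with log2 fold changes between 0.40 and 0.44.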

How the data were processed

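RNA-seq counts were analysed for 3 WT and 3 Wnt1cre; Rosa26Dlx2/- samples, grouped by the labels. The deposited values are raw counts of read pairs per Ensembl gene. Per the labels and the study's methods, the authors trimmed reads, checked them with FastQC, aligned them to mm10 with STAR 2.7.3a and counted with HTSeq 0.12.4. The annotation release and strand setting are not given in the sources used here, so reads of overlapping genes on opposite strands may not be told apart. Libraries were prepared from poly-A selected RNA.

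Genes were matched to GENCODE M21 (53706 of 53801). The filterByExpr function (minimum count 10) left 17514 genes. TMM factors, the quasi-likelihood F test of genotype alone and Benjamini-Hochberg adjustment were applied with edgeR 4.0.16 in R 4.3.3 (prior count 2 for log2 CPM), and DESeq2 1.42.0 was an alternative. Exon length is the union of annotated exons, and length classes used 17496 genes with a length. The correction was a loess fit (span 0.5) of each library's deviations on log2 exon length and on the GC content of the longest transcript, entered as offsets. Corrections for length alone, GC alone and the longest transcript were added after the data were seen. The edgeR and DESeq2 fits were tested on simulated counts with known changes. The joint length and GC correction was tested on a simulated length trend alone, with no GC trend and no changed gene. Whether it also removes true changes of long genes was thus not tested, and the other steps were not tested. Figures were drawn with matplotlib 3.10.9.

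The text names all members and the partner of each pair. In each complex list it names the called genes (at most 3), or the gene with the lowest p, and also the 3 genes with the lowest p near Rosa26, the sex-linked genes, Dlx2, Malat1 and the 3 nearest profiles. The members and lists were chosen with earlier results of these data known. No library was left out of the main comparison, and no 2 libraries agreed within sampling noise. The floor of 3 counts covers counting error only, whereas the 95% intervals come from the edgeR fit and hold the spread between samples.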

Additional observations from a re-analysis of the deposited data

Results flagged for a closer look

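Read pairs that fell outside annotated exons, which enter no gene count, made up 6.46%, 8.78% and 16.4% of the pairs on genes or outside in Dlx2OE 1, 2 and 3, each above the highest WT sample (6.25%). No test was made of this difference. Dlx2OE 3 stood apart, and it also had the highest levels of Chd7, Kmt2d, Crebbp, Arid1b, Setd5 and Kdm6a. Nipbl and Ehmt1 instead had their lowest Dlx2OE levels there (217.0 and 187.9 CPM), and Kat6a and Kat6b lay between the other Dlx2OE samples. Without Dlx2OE 3, the median log2 fold change of the members was 0.34 in place of 0.38, all 10 stayed positive, and 1 member was called in place of 4. Calls over all genes fell as well, from 1130 of 17514 to 315 of 17902. The drop was not particular to this library, since 1 member was called without WT 1 or Dlx2OE 2 and 0 without WT 2.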

How the results depend on the processing

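All 10 log2 fold changes stayed positive with DESeq2, RLE factors, library size alone, either change of the low-count filter, removal of mitochondrial and haemoglobin genes, the replicate block, GC correction alone and each left-out library. The replicate numbers do not pair the samples (same-number correlations -0.016, -0.28 and 0.23). With them as a block, 4 members passed (median 0.37), as did 1 of the 80 other complex genes. In total 1130 genes were called (524 higher, 606 lower), against 2630 with DESeq2, 2044 without the filter, 698 with the length correction alone and 577 with the length and GC correction and the block.

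The number of members called was 4, and 5 with DESeq2, which called 2630 of 16139 genes tested. It was 0 with the length and GC correction (4 at an unadjusted p under 0.05), 1 when the block was added to it (Kmt2d, adjusted p = 0.0488), 1 with length alone (Kmt2d) and 0 with the longest transcript and GC (3 at an unadjusted p under 0.05). Of all 17514 genes, 758, 577, 698 and 757 were called under these corrections in the same order. The share of all genes at an unadjusted p under 0.05 is not given for them. The members' median of 0.38 became 0.15, 0.15, 0.17 and 0.066, again in that order. The 2 other complex genes called became 13 with DESeq2 and 0 under these 4 corrections and under GC alone, with 6, 7, 7, 6 and 26 at an unadjusted p under 0.05.

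Leaving out 1 library gave 0 (without WT 2) to 5 members called (without WT 3), and 1 without WT 1, Dlx2OE 2 or Dlx2OE 3. It gave 0 to 14 other complex genes, with 14 without WT 3, and 79 to 2091 genes in all.

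Signs changed as follows. Chd7 had -0.019 with the length and GC correction, -0.044 with the block added and -0.081 with the longest transcript, but 0.035 with length alone. Setd5 had -0.11, -0.11 with the block, and -0.065 with length alone, but 0.034 with the longest transcript. With TMM factors from long genes, which shifted the median of all genes to -0.20, the members' median was 0.18, 3 passed, Kdm6a had -0.0019, and 382 genes were higher and 1877 lower. The cause was not tested. With 3 samples a group, the intervals of members that did not pass reach 0.46 to 0.82, so a p over the threshold does not show that they did not differ.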
